A study of Saccharomyces cerevisiae with 46 samples.

Results

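The map described here is the distribution of meiotic DNA double-strand breaks (DSBs) in *rad50S* cells of budding yeast with *HOP1* and *PCH2* intact. It comes from the 2 covalent-complex sequencing (CC-seq) libraries titled *rad50S*, of 6 CC-seq libraries analysed and of 46 samples in the whole series. Both are replicate libraries of diploid SK1 cells, a strain that sporulates rapidly and synchronously, collected 6 h after transfer to sporulation medium. The diploid was homozygous for *rad50S::URA3* and for the *HIS4::LEU2-(NBam;ori)* construct, *ho::hisG*, *leu2::hisG* and *ura3(Δsma-pst::hisG)*, and heterozygous for *his3::hisG* and *trp1::hisG*. The other 4 CC-seq libraries, 2 of *rad50S hop1-loop2* and 2 of *rad50S hop1-loop2 pch2*, carry *rad50S* as well, so that all CC-seq libraries analysed here share it. The genotype entry of the labels names another strain (*hop1deltaPHD/WHD;rec8delta*) for all 6 libraries, and the titles were followed. The study's methods refer to independent biological replicates for CC-seq.

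Meiotic DSBs start recombination between homologous chromosomes. They are made by Spo11, a relative of topoisomerases, which stays covalently bound to the 5′ end of each cut strand until the Mre11-Rad50-Xrs2 complex and Sae2 clip it off. The *rad50S* allele blocks this clipping, so that breaks persist with Spo11 attached, and CC-seq isolates these protein-bound ends and reads the 5′ terminal position on each strand. In yeast, most breaks form in short hotspots, typically in the open chromatin of promoters. Repair is blocked in these cells, and *rad50S* is known to lower break signal in some regions relative to strains that resect breaks, so the map is one of breaks that accumulate in *rad50S* and not of breaks in a wild-type meiosis.

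The libraries held 7730583 hits in replicate 1 and 7577582 hits in replicate 2. The authors' values are HpM, hits per 1000000 hits, so that each library has the same total on the 16 nuclear chromosomes. One hit was worth 0.129 HpM in replicate 1 and 0.132 HpM in replicate 2. HpM values therefore describe where breaks fall, and say nothing of how many breaks a cell makes. Hits covered 790859 positions in replicate 1 and 837230 in replicate 2, and only 5.20% and 5.66% of the hits were alone on their strand position. The 2 strands were covered almost equally in both, with 50.5% and 50.2% of hits on the Watson strand. Positions are those of the SK1 assembly ASM205788v1 used by the authors. No gene annotation of that assembly was used here, so hotspots are given by position and not by gene.

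Break signal was concentrated in a small part of the genome. Hotspots were defined on the mean of both replicates as stretches in which the value per position, after smoothing by a Hann window that reaches 100 bp to either side, stayed above 0.2 HpM per bp for at least 25 bp, with stretches less than 200 bp apart merged. This gave 3489 hotspots over 12060 kb, or 28.9 per 100 kb. They covered 909 kb, which is 7.53% of the genome, and held 89.8% of the hits of replicate 1 and 88.6% of those of replicate 2 (89.2% ± 0.859, SD, n = 2). The density was 982 ± 9.46 HpM per kb inside hotspots and 9.70 ± 0.771 HpM per kb outside (SD, n = 2). Because the same libraries chose the regions, these figures describe the map. Regions found in replicate 1 alone held 88.3% of the hits of replicate 2, and regions found in replicate 2 alone held 89.5% of the hits of replicate 1, so the share was nearly as high in a library that had no part in choosing them.

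Hotspot strength ranged over 3 orders of magnitude around a low median. The weakest hotspot held 2.68 HpM and the strongest 6785 HpM, with a median of 116 HpM and a mean of 256 HpM. The middle of the distribution was broad, with quartiles at 52.3 and 284 HpM and a 22.2-fold distance between the 10th percentile (26.8 HpM) and the 90th (595 HpM). Only 23 hotspots held less than 10 HpM. Another 391 lay between 10 and 30 HpM, 1160 between 30 and 100 HpM, and 1102 between 100 and 300 HpM. The 662 hotspots between 300 and 1000 HpM were 19.0% of all hotspots and held 38.6% of the hotspot signal. The 151 hotspots of 1000 HpM or more were 4.33% of all hotspots and held 30.5%. The weak end of the list is set by the rule. Strength is summed inside the bounds of a hotspot, while the smoothed value also draws on hits up to 100 bp outside them. The 3 weakest hotspots thus held only 0.0955, 0.113 and 0.111 HpM per bp before smoothing. The 3 lowest peaks that passed reached 0.203, 0.204 and 0.206 HpM per bp after smoothing, the 3 highest that failed reached 0.200 HpM per bp (0.1999, 0.1998 and 0.1998), and 45 further stretches above the limit were shorter than 25 bp.

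A minority of hotspots therefore carried most of the breaks. The strongest 1% (35 hotspots) held 12.6% of the hotspot signal, the strongest 5% (174) held 33.0%, the strongest 10% (349) held 47.4%, and the strongest 25% (872) held 71.0%. The stronger 50% (1744) held 89.1%, which left the weaker 50% with little. It took 389 hotspots, or 11.1%, to reach 50% of the hotspot signal. It took 497 hotspots to reach 50% of all hits, and these covered 275 kb or 2.28% of the genome. The Gini coefficient, which is 0 for equal strengths and approaches 1 when a single hotspot takes all, was 0.614 in each replicate.

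**Figure D1:**
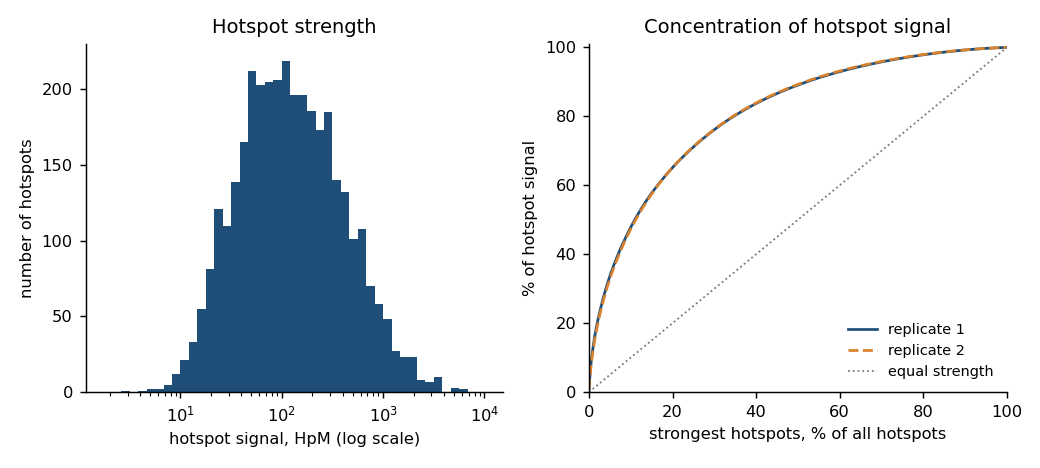
Left, number of *rad50S* hotspots by strength (mean HpM of both replicates, log scale). Right, share of the hotspot signal (y, %) held by the strongest hotspots (x, % of 3489), ranked within each replicate, with a dotted line for equal strengths; both replicates follow the same curve and reach 47.8% and 47.3% at the strongest 10%.

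Ranking hotspots and summing them in the same library favours high shares, so the ranking was also taken from one replicate and the sum from the other. The strongest 10% by replicate 2 held 47.2% of the hotspot signal in replicate 1, and the strongest 10% by replicate 1 held 46.6% in replicate 2. These shares were within 1 percentage point of those ranked in the library itself. The lists overlapped in 307 of 349 hotspots at the strongest 10%, in 150 of 174 at the strongest 5% and in 27 of 35 at the strongest 1%.

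The 10 strongest hotspots lay on 8 chromosomes. The strongest of all was on chromosome XVI (345177 to 345782), with 6287 HpM in replicate 1 and 7282 HpM in replicate 2. It packed this signal into 606 bp, and the central 80% of its hits into 204 bp. The second, on chromosome IV (823258 to 824586), held 6981 and 5547 HpM and was more than 2 times as wide at 1329 bp. These hotspots changed places at the head of the list between replicates, so their order was not resolved.

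Chromosome XIII carried the third and the fifth. The third (359600 to 360751) held 5603 and 4692 HpM, and the fifth (770309 to 771406) held 5069 and 4323 HpM. Between them came a hotspot on chromosome II (650413 to 651286) with 5453 and 4052 HpM. The ranges of these 3 hotspots overlapped.

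The other 5 had mean values between 3583 and 3631 HpM, a range narrower than the difference between replicates of any of them. On chromosome VIII (185520 to 187154) the replicates held 4067 and 3195 HpM. On chromosome III (216231 to 217564) they held 4134 and 3127 HpM. Chromosome VII carried a pair of these hotspots, at 399162 to 399975 with 3827 and 3352 HpM and at 602450 to 603737 with 4052 and 3118 HpM. The last, on chromosome IX (329961 to 331696), held 3871 and 3295 HpM. Replicate 1 was higher at 9 of these 10 hotspots and at 59 of the strongest 100. The one nearest to a chromosome end, on chromosome IX, lay 118.6 kb from it.

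Every chromosome had a strong hotspot, but the strongest differed 5.11-fold between chromosomes. On 13 of the 16 it was among the 24 strongest of the genome. Chromosome VI reached 4060 and 2742 HpM at 116177 to 117610, chromosome X 3573 and 3188 HpM at 246746 to 247428, and chromosome XV 3140 and 3533 HpM at 568101 to 568770. The replicates differed by 1.48-fold at the chromosome VI hotspot, and all 3 were among the 14 strongest of the genome. Chromosome XII peaked at 637308 to 637820, where the replicates held 2175 and 3734 HpM, and chromosome XIV at 429959 to 430778 with 2695 and 2280 HpM. The chromosome XII hotspot ranked 35th in replicate 1 and 6th in replicate 2. The strongest hotspots of the remaining 3 chromosomes were weaker. Chromosome XI reached 1906 and 1929 HpM at 380996 to 381700, chromosome I 1637 and 1499 HpM at 116301 to 118203, and chromosome V 1248 and 1408 HpM at 397104 to 397976. The values of chromosome XI did not overlap those of chromosome I, and those of chromosome I did not overlap those of chromosome V. The strongest 100 hotspots, each with at least 1232 HpM, were spread over all 16 chromosomes and held 22.1% and 21.0% of all hits.

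Hotspots were narrow, and strong ones were wider. Widths ran from 26 to 1903 bp with a median of 207 bp and quartiles at 140 and 304 bp. Smoothing widens a narrow cluster of hits, and the width above a fixed limit grows with strength even when the shape stays the same. The stretch holding the central 80% of a hotspot's hits is less exposed to both, and its median was 110 bp. It counts only hits inside the called bounds, so the limit restricts it as well. How much of its rise with strength comes from the rule was not tested. Median width rose from 72 bp at 10 to 30 HpM to 235 bp at 100 to 300 HpM and 651 bp at 1000 HpM or more, and the central width rose with it from 46 to 123 and 300 bp. The rank correlation with strength over the 3489 hotspots was 0.930 for width and 0.750 for the central width. Hotspots of over 500 bp numbered 338, and those of over 1000 bp numbered 32.

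**Figure D2:**
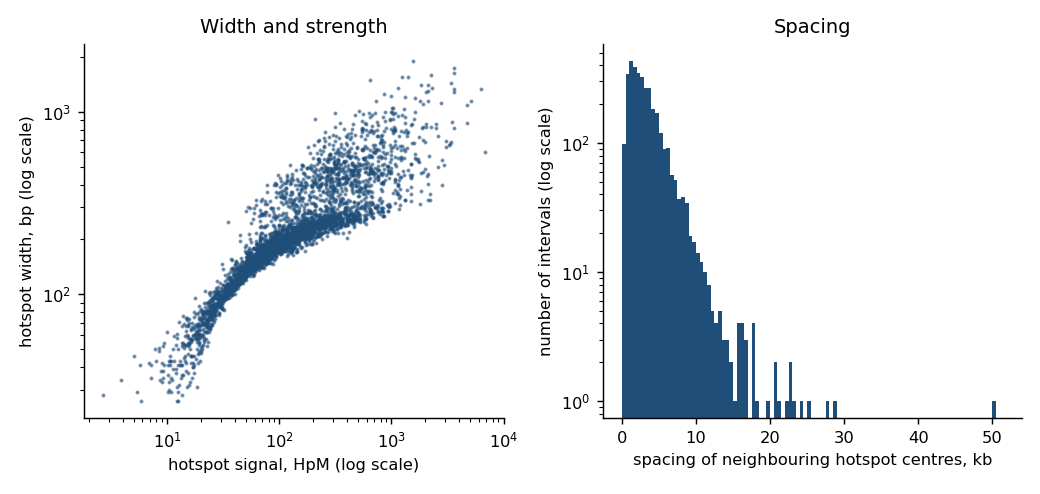
Left, width (bp) against strength (mean HpM) of 3489 *rad50S* hotspots, both on log scales; widths follow a narrow band up to about the median of 207 bp and fan out up to 1903 bp among strong hotspots. Right, number of intervals (log scale) by distance between the centres of neighbouring hotspots (kb), with a median of 2.68 kb and a single interval of 50.0 kb.

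The widest hotspot was the strongest of chromosome I (116301 to 118203). It spanned 1903 bp with the central 80% of hits in 1280 bp, so its hits were spread at 0.824 HpM per bp. The next were the strongest of chromosome IX, with 1736 bp and a central width of 752 bp, and that of chromosome VIII, with 1635 bp and a central width of 416 bp. The chromosome XVI hotspot that headed the list reached 11.2 HpM per bp. Among the strongest of each chromosome, strength thus came in different shapes, from 120 bp of central width on chromosome XV to 1280 bp on chromosome I. The rule merges stretches less than 200 bp apart, so a wide hotspot may hold several peaks, which were not separated here.

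Breaks inside a hotspot were spread over many positions. The median hotspot had hits at 116 positions, and its most used position took 11.1% of its hits. That share fell from a median of 18.8% at 10 to 30 HpM to 7.09% at 1000 HpM or more, while the number of positions rose from 36 to 419. Both measures also depend on the number of hits and on width, which rise with strength, and neither was corrected for this. Among the 2661 hotspots of at least 50 HpM, the most used position took at most 38.1%. In the 10 strongest, it took between 4.44% and 10.6%.

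Hits were often divided unequally between the 2 strands of a hotspot, and mostly toward the same strand in both replicates. Because a break leaves a protein-bound end on each strand, this is a share of the ends that were read. Whether it comes from the breaks or from the recovery and mapping of their ends was not tested. Among hotspots of at least 50 HpM, the share of hits on the Watson strand had a median of 50.4%, a 5th percentile of 20.4% and a 95th percentile of 80.01%, with extremes at 0.839% and 97.9%. It lay outside 40 to 60% in 1068 of 2661 hotspots (40.1%). The standard deviation over hotspots was 15.9 percentage points, compared to 1.37 points for counting error at the median of 1323 hits. Counting error is larger in hotspots with fewer hits, of which the lowest had 228 in a library. It also takes reads as independent, which copied reads are not. The median difference between replicates was 2.23 points, the correlation between replicates was 0.979, and 2404 of the 2661 hotspots leaned to the same strand in both. The spread narrowed with strength, from a standard deviation of 18.9 points at 30 to 100 HpM to 9.99 points at 1000 HpM or more.

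Single hotspots show the range. The strongest hotspot of chromosome VI had 75.5% and 74.8% of hits on the Watson strand, and that of chromosome XIV had 35.0% and 32.1%. The strongest of chromosome V was nearly balanced at 48.7% and 48.3%. Libraries that had no part in choosing the hotspots gave like shares: over 2065 hotspots with at least 50 HpM in both genotypes, the correlation of the Watson share with *rad50S hop1-loop2* was 0.945, and over 1957 hotspots it was 0.755 with *rad50S hop1-loop2 pch2*. At the level of single positions, the log2 values of the 2 strands matched best with the Crick hit 1 bp from the Watson hit, with a correlation of 0.783 in replicate 1 and 0.744 in replicate 2. At every other offset up to 6 bp either way it was at most 0.246. These correlations are across hotspots or positions of the same libraries and are descriptions only.

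**Figure D3:**
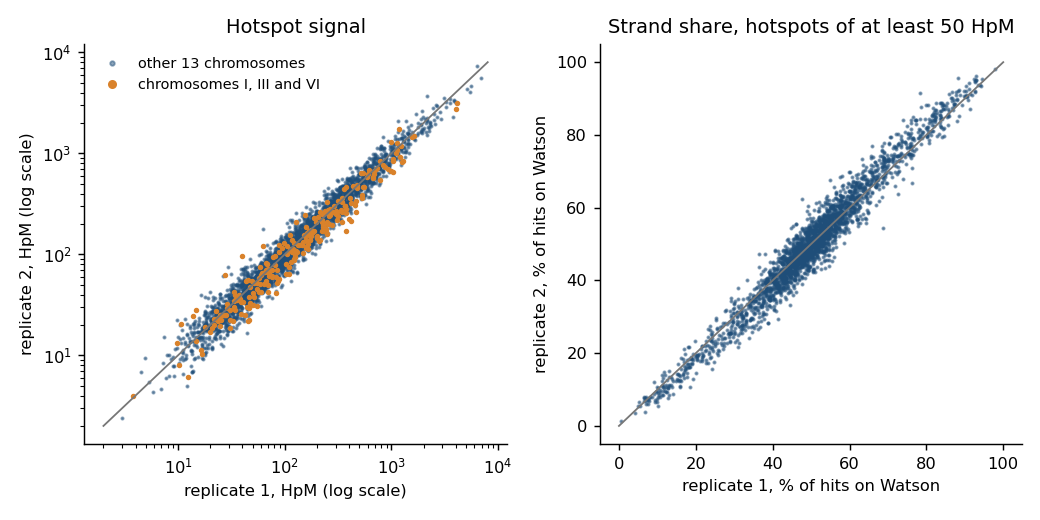
Left, HpM of each of the 3489 *rad50S* hotspots in replicate 1 (x) and replicate 2 (y), both on log scales, with hotspots of chromosomes I, III and VI in orange and the line of equal values; 92.3% lie within 1.5-fold of each other and orange points lie more often on the side of replicate 1. Right, share of hits on the Watson strand (%) in the same replicates for 2661 hotspots of at least 50 HpM, with the line of equal values; the shares run from 0.839% to 97.9% and follow that line.

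The replicates agreed closely on hotspot strength, though not to within counting error. Their log2(HpM + 1) values had a correlation of 0.982 over the 3489 hotspots, the median difference was 1.15-fold, and 3219 hotspots (92.3%) lay within 1.5-fold. Only 22 differed by more than 2-fold. The standard deviation of the log2 ratio was 0.332, compared to 0.068 expected from counting error at the median of 900 and 880 hits. This sets all hotspots, some with as few as 18 hits in a library, against counting error at the median only. Counting error here treats reads as independent molecules, which reads copied by PCR are not. Called on one library alone, the rule gave 3500 hotspots in replicate 1 and 3447 in replicate 2, of which 95.4% and 96.8% overlapped a hotspot of the other.

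Weak hotspots differed most between replicates, with a standard deviation of the log2 ratio of 0.444 below 10 HpM and 0.393 at 10 to 30 HpM, compared to 0.292 at 1000 HpM or more. Single hotspots were compared among those of at least 50 HpM only. There, the hotspot at 41061 to 41266 on chromosome XIII held 62.1 HpM in replicate 1 and 178 HpM in replicate 2, and that at 736337 to 736474 on chromosome XIV held 29.5 and 75.2 HpM. In the other direction, the hotspot at 97435 to 97711 on chromosome VI held 376 and 171 HpM, and that at 220099 to 220282 on chromosome XII held 115 and 54.6 HpM. Differences between replicates were shared by neighbours. The log2 replicate ratio of adjacent hotspots had a correlation of 0.234, which fell to 0.177 at 2 hotspots apart, 0.111 at 5 and 0.035 at 20 (about 64.9 kb). Strength itself showed hardly any such relation, with a rank correlation of 0.034 between adjacent hotspots.

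Break density differed nearly 2-fold between chromosomes. The genome held 82.9 HpM per kb. Chromosome VI had the highest density, with 112 HpM per kb in replicate 1 and 105 in replicate 2 (108 ± 5.18, SD, n = 2). Chromosome I followed with 106 and 94.1 HpM per kb (100.03 ± 8.43). Chromosome XVI had 91.2 and 92.6, and chromosome IV, the longest, had 89.5 and 91.9 HpM per kb. Both replicates of chromosomes I and VI lay above both replicates of every other chromosome.

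At the low end, chromosome XII, which carries the ribosomal DNA, had 54.6 and 56.1 HpM per kb (55.3 ± 1.09). Chromosome III had 66.2 and 55.6 HpM per kb (60.9 ± 7.51), and its range overlapped that of chromosome XII. Chromosome V had 70.1 and 70.0, and chromosome IX 72.4 and 71.0 HpM per kb, without overlap with chromosomes III and XII. The other 8 chromosomes had means between 78.7 and 89.6 HpM per kb. Chromosome III carries the *HIS4::LEU2* construct and *leu2::hisG* in this strain. Reads from inserted sequence were not examined. Whether reads mapped equally well along all chromosomes, the ribosomal DNA included, was not tested.

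**Figure D4:**
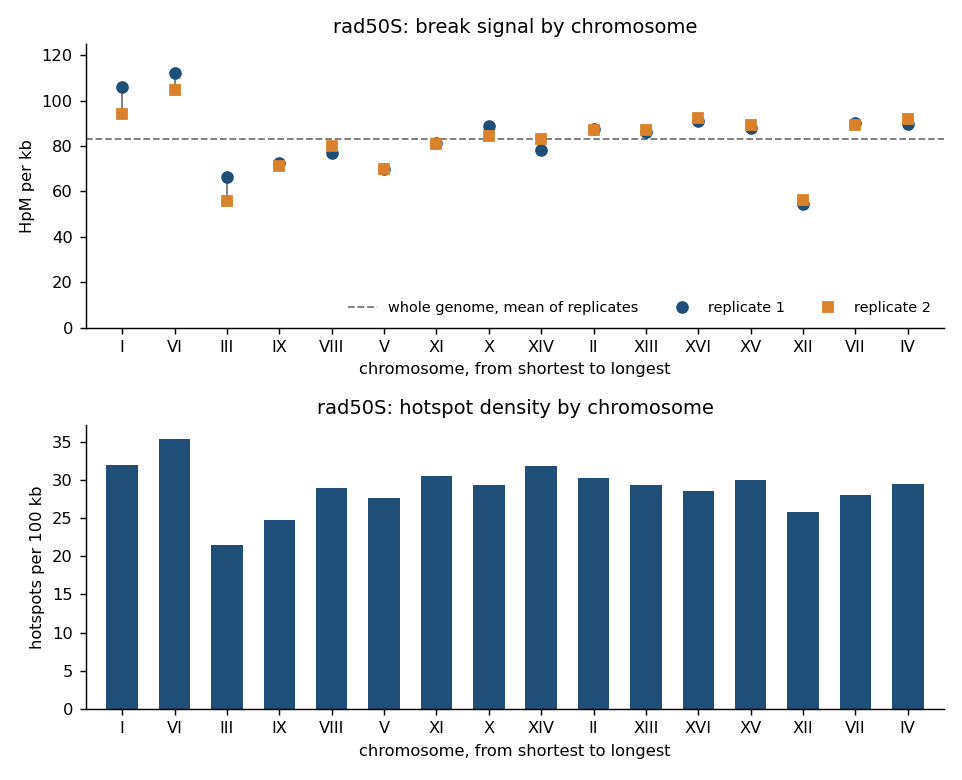
Top, *rad50S* break signal per chromosome (HpM per kb) in replicate 1 (circles) and replicate 2 (squares), joined by a line, with the genome value of 82.9 HpM per kb dashed; chromosomes I and VI lie above the rest, III and XII below, and the replicates separate most on chromosomes I and III. Bottom, hotspots per 100 kb of the same chromosomes, from 21.4 on chromosome III to 35.4 on chromosome VI.

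Density and length were not simply related. Across the 16 chromosomes, Pearson's r of density with length was -0.015 and the Spearman rank correlation 0.103, and r was 0.040 without the shortest and the longest (I and IV). The rank correlation turned to -0.141 with each strand position counted once. Without chromosomes I, III and VI the rank correlation was 0.615 (r = 0.360, n = 13). The 3 shortest chromosomes thus fell on both sides of the rest. As a group, they had 1.13 times the density of the other 13 in replicate 1 and 0.997 times in replicate 2, so the direction was not shared by the replicates. Chromosomes I and VI without III had 1.27 times the density of the other 13, and chromosome III had 0.738 times. Beyond 20 kb from an end, chromosomes I and VI had 122 and 112 HpM per kb, compared to 85.5 and 86.3 on the other 13.

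Part of this uncertainty on short chromosomes lay between the replicates. The ratio of replicate 1 to replicate 2 was 1.19 on chromosome III, 1.13 on chromosome I and 1.07 on chromosome VI, and between 0.943 and 1.05 on the other 13. Replicate 1 was the higher one at 76.7% of the hotspots of chromosome I, 71.2% of those of III and 65.1% of those of VI. Elsewhere this share ranged from 46.5% to 64.3%. Across the 16 chromosomes, this ratio had a correlation of -0.736 with log10 of length, which describes a single pair of libraries.

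Chromosomes differed in both the number and the strength of their hotspots. Hotspot density was 35.4 per 100 kb on chromosome VI, 31.95 on I and 31.8 on XIV, and 21.4 on III, 24.7 on IX and 25.8 on XII. Mean strength was 291 HpM on chromosome XVI, 286 on VII, 279 on IV and 273 on VI, and only 185 HpM on XII. Over 16 chromosomes, signal per kb had a correlation of 0.821 with hotspot density and of 0.781 with mean strength, both of which enter it by construction, while hotspot density and mean strength had a correlation of 0.305. Without VI and III, the 2 chromosomes farthest from the median hotspot density, the correlation of signal per kb with hotspot density was 0.684. Without V and XII, the 2 farthest from the median of mean strength, that with mean strength was 0.612. The correlation of hotspot density with mean strength was then 0.136. Chromosome III was low through few hotspots, at a mean strength of 240 HpM that was close to the genome mean. On chromosome XII both were low.

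Chromosomes also differed in how unequal their hotspots were and in the signal between them. The strongest 10% held 57.7% of the hotspot signal on chromosome IX, 52.1% on VIII and 51.52% on III, compared to 36.9% on V and 39.2% on I. Hotspots of 1000 HpM or more numbered 0.474 per 100 kb on chromosome XII (5 hotspots) and 0.678 on V (4), compared to 1.25 over the genome and 2.00 on VI (6). Chromosome I, with 3 such hotspots or 1.31 per 100 kb, was close to the genome value. The signal outside hotspots was 16.1 HpM per kb on chromosome I and 13.1 on VI, and between 8.21 and 10.2 HpM per kb on the other 14. Hits fell inside hotspots least often on chromosome III (84.3%) and chromosome I (85.4%), and most often on IV (90.7%).

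Signal rose with distance from the chromosome ends over about 75 kb. Distances were measured to the first or last position with a hit in either library. Whether reads mapped as well near the ends as farther in was not tested. Within 5 kb of an end, density was 6.90 and 7.69 HpM per kb. It was 19.8 and 19.7 at 5 to 10 kb, and 19.2 and 18.4 at 10 to 20 kb. Density then rose to 37.5 and 38.1 at 20 to 30 kb, 54.5 and 55.0 at 30 to 50 kb, and 52.3 and 54.9 at 50 to 75 kb. From 75 kb inward it no longer rose with distance, with 89.7 and 93.4 HpM per kb at 75 to 100 kb, 93.7 and 93.0 at 100 to 150 kb and 93.6 and 93.0 farther in. The difference between adjacent steps exceeded the difference between replicates at 5, 10, 20, 30 and 75 kb, with a small fall at 10 kb, and did not at 50, 100 and 150 kb.

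**Figure D5:**
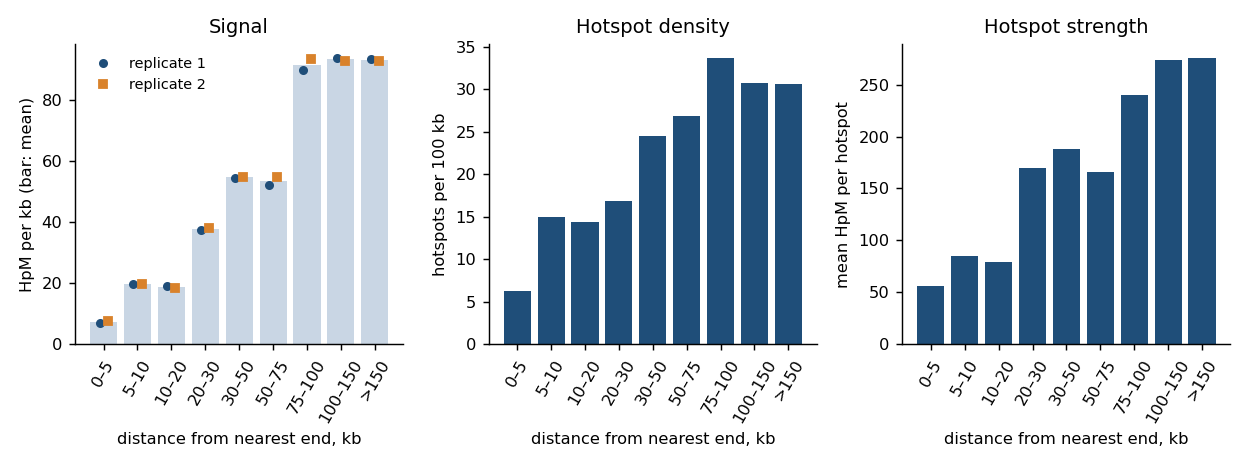
*rad50S* signal (HpM per kb; bars, mean; points, replicates), hotspots per 100 kb and mean HpM per hotspot by distance from the nearest chromosome end (kb, all 32 ends, bins of unequal width). All 3 are lowest within 5 kb, and signal reaches 91.6 HpM per kb at 75 to 100 kb and 93.3 farther in.

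Both the number and the strength of hotspots fell toward the ends. The outer 20 kb of all 32 ends held 5.31% of the genome and 1.04% and 1.03% of the hits, which is 0.186 ± 0.00214 (SD, n = 2) of the density farther in. The ratio was 0.444 with each strand position counted once, a setting that drops repeated breaks together with copied reads. They had 80 hotspots, or 12.5 per 100 kb, with a median of 56.6 HpM and a mean of 78.1 ± 5.14 HpM (SD, n = 2). More than 100 kb from an end there were 2714 hotspots, or 30.6 per 100 kb, with a median of 125 HpM and a mean of 275 ± 3.77 HpM. Of the 80 outer hotspots, 2 reached 300 HpM, compared to 678 of the 2714 inner ones (25.0%). In the outer 20 kb, 39.6% of the hits lay outside hotspots. No hotspot among the strongest 100 lay within 76.4 kb of an end.

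Every one of the 32 ends was below the mean of its chromosome in its outer 20 kb in both replicates, but by different amounts. The median ratio was 0.174. The right end of chromosome VI came closest, with 81.4 and 63.6 HpM per kb over its outer 20 kb, 7 hotspots and a ratio of 0.669. It held a hotspot of 618 HpM. The left end of chromosome XIII had 38.5 and 35.7 HpM per kb and also 7 hotspots, and the left end of chromosome XI had 27.1 and 30.7 HpM per kb. At the other extreme, the right end of chromosome IX had 1.09 and 1.73 HpM per kb, the right end of chromosome IV 3.20 and 4.098, and the left end of chromosome XII 3.78 and 4.30 HpM per kb. These 3 ends had no hotspot in their outer 20 kb.

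The outermost hotspot lay at a median of 5.71 kb from the end, and within 10 kb at 21 of the 32 ends. The nearest was at the right end of chromosome XV, at 0.641 kb (1053048 to 1053214), with 74.2 ± 5.23 HpM (SD, n = 2). The farthest was at the right end of chromosome IV, where the first hotspot lay 48.3 kb in (1438109 to 1438666) and held 1226 ± 49.5 HpM. At the right end of chromosome IX, the first hotspot lay 47.9 kb in (401503 to 401645) and held 42.7 ± 16.8 HpM. The chromosome IV end thus passed from no hotspot straight to one far above the genome median, and the chromosome IX end to a weak one.

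Hotspots were spaced a few kilobases apart. The 3473 intervals between neighbouring centres had a median of 2.68 kb and a mean of 3.37 kb, with 442 under 1 kb (12.7%), 96 over 10 kb and 12 over 20 kb. The intervals over 10 kb made up 11.5% of the genome. The standard deviation of all 3473 intervals was 0.857 times their mean, a ratio that is 1 when points fall at random and independently. Merging of stretches less than 200 bp apart removes the shortest intervals. The ratio rose to 0.9004 among hotspots of at least 30 HpM and to 1.02, 1.11 and 1.05 among those of at least 100, 300 and 1000 HpM, whose median spacings were 4.41, 8.97 and 39.0 kb.

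The longest interval without a hotspot was on chromosome III, between a hotspot that ended at 101321 and one that started at 151279. Its 50.0 kb held 250 HpM in replicate 1 and 268 HpM in replicate 2, or 5.00 and 5.37 HpM per kb. The second, on chromosome XII (443135 to 471655), had 28.5 kb between hotspot edges with 2.54 and 2.16 HpM per kb. The third was on chromosome XV (41309 to 68931), with 27.6 kb at 6.75 and 8.27 HpM per kb. All 3 lay below the 9.70 HpM per kb that the genome held outside hotspots. Chromosome III also held the fourth longest, from 14304 to 39509, with 5.23 and 4.702 HpM per kb. These 2 intervals left 75.2 kb of its 341 kb without a hotspot.

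At larger scales the map was more even. In tiles of 1 kb the standard deviation of density was 2.92 times the mean, the median was 6.13 HpM per kb, and the strongest 10% of tiles held 69.9% of hits. The ratio fell to 1.00 in tiles of 10 kb and to 0.506 in tiles of 50 kb. Averaging over longer tiles lowers this ratio by itself, so the fall is a description only. The rank correlation of density between neighbouring tiles was 0.207, 0.239 and 0.156 in tiles of 1, 10 and 50 kb. The 231 tiles of 50 kb ranged from 5.45 to 220 HpM per kb, with 5th and 95th percentiles at 21.7 and 166. No hits fell in 16 of the 12052 tiles of 1 kb and in 1 of the 1198 tiles of 10 kb. Whether reads could be mapped there was not tested. The replicates had a correlation between 0.985 and 0.989 over log2 values at all 3 scales.

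The 4 other CC-seq libraries were used as an outside view of the hotspot list. In *rad50S hop1-loop2*, the region by which Hop1 binds chromatin is mutated, and *pch2* removes the ATPase that displaces Hop1 from chromosomes. The *rad50S* hotspots held 84.8% and 84.6% of the hits of the *rad50S hop1-loop2* libraries, 4.48 percentage points less than in *rad50S* itself. The groups did not overlap. The exact two-sided permutation test over libraries gave p = 0.333, the smallest value that 2 against 2 libraries allow, so it could not separate them. The regions were chosen on *rad50S*, which favours this direction. Hotspots called on *rad50S hop1-loop2* itself numbered 3285 and held 89.2% of its own hits. Those called on *rad50S* likewise held 89.2% of the hits of *rad50S*.

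On the fixed list, the strongest 10% of hotspots, ranked in each library, held 47.8% and 47.3% of the hotspot signal in *rad50S* and 55.4% and 55.5% in *rad50S hop1-loop2*. The difference was -7.89 percentage points, again without overlap and with the smallest possible exact p of 0.333, which could not separate the groups. The list was chosen on *rad50S*, which can favour this direction too. On hotspots called in each genotype separately, the strongest 10% held 47.4% in *rad50S* and 53.1% in *rad50S hop1-loop2*, a smaller difference. In *rad50S hop1-loop2 pch2*, whose libraries were smaller (3614810 and 1026669 hits), the strongest 10% on the fixed list held 54.9% and 55.5%, and the *rad50S* hotspots held 78.9% and 59.4% of the hits. Of the 3489 *rad50S* hotspots, 2803 (80.3%) overlapped a hotspot called in *rad50S hop1-loop2* and 2749 (78.8%) one called in *rad50S hop1-loop2 pch2*. As shares of the lists of those genotypes, 85.1% and 82.8% overlapped a *rad50S* hotspot.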

How the data were processed

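CC-seq was analysed in 2 *rad50S* libraries, with 4 libraries that also carry *hop1-loop2*, without or with *pch2*, for comparison. Groups and replicates follow the sample titles. The authors sequenced paired ends, aligned them with Bowtie2 through TermMapper (R 4.1.2) to the SK1 assembly ASM205788v1 with spike-in sequences, and deposited HpM (an RPM unit) for each position and strand of the nuclear chromosomes, with replicates kept apart. Removal of duplicate reads is not given in the sources used here. In each library, 100% of values were whole multiples of 1 hit (tolerance 0.001), so hits were recovered. The reference supplied was S288C, and no coordinates, genes or sequences were carried over.

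HpM of both strands was summed per position and averaged over replicates, and hotspots were found as the text describes. Hotspot HpM was summed over unsmoothed values, and the central width spans the 10th to 90th percentile of hits inside the called bounds. Log values used a pseudocount of 1 HpM. The 2 differences between genotypes were tested by an exact two-sided permutation test over libraries. All else is description. No count test was run on the recovered hits, as no comparison of single hotspots between genotypes was made. Hotspots named in the text are the 10 strongest, the strongest of each chromosome, the 3 widest, the 3 longest intervals, the outermost at ends, the nearest to the limits of the rule, and the 2 with the largest replicate ratio in each direction among those of at least 50 HpM. The fourth interval, other ends named and examples of strand share were chosen after their values were seen. The hotspot rule, the questions and the alternatives were chosen with earlier results of these data known. The hotspot rule was tested on simulated hotspots of equal shape, set well apart on an even background. Merging, close spacing and unequal widths were not covered. Alternatives covered the limit, the window, merging, weak hotspots, repeated hits, depth, the pseudocount, the end distance and each library left out. Scripts ran in Python 3.11.15 with scipy 1.17.1, pandas 2.3.3, numpy 2.4.6 and, for plots, matplotlib 3.10.9.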

Additional observations from a re-analysis of the deposited data

How the results depend on the processing

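The number of hotspots stayed within 1.5 times 3489 under every alternative run, from 2587 (limit of 0.4 HpM per bp) to 4607 (each strand position counted once). The share of hits in hotspots was 93.4% with a limit of 0.1 HpM per bp, 81.2% with 0.4, 88.3% with a wider Hann window (200 bp to either side) and 75.2% with each strand position counted once. The share in the strongest 10% of hotspots was 50.5% and 43.4% at those limits, 49.4% with a narrower window (50 bp to either side) and 44.3% with the wider one, 46.7% with merging below 500 bp, 45.6% without hotspots under 25 HpM and 33.0% with each position counted once. Counting positions once, which drops repeated breaks as well as copied reads, also moved the ratio of chromosomes I, III and VI to the rest to 1.15, the end ratio to 0.444 and the rank correlation of density with chromosome length to -0.141. The end ratio was 0.159 within 10 kb and 0.398 within 50 kb. Choices made after seeing the data split the short chromosomes into I and VI (1.27) and III (0.738), and the ratio without chromosome XII was 1.03.

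Without one *rad50S* replicate, hotspots numbered 3447 and 3500, held 88.6% and 89.9% of hits, and gave 47.2% and 47.7% for the strongest 10%, 0.997 and 1.13 for the short chromosomes and 0.185 and 0.188 for the ends. With any one library left out, the 2 differences between genotypes ranged from 4.37 to 4.73 and from -8.26 to -7.42 percentage points. Under all alternatives they kept their direction, which a list chosen on *rad50S* favours, and no setting could bring the exact p below 0.333. Their size moved more with the rule. The difference in hit share was 2.89 points with a limit of 0.1 HpM per bp and 7.32 with 0.4. The difference in the strongest 10% was -2.81 points with each strand position counted once and -9.29 with a limit of 0.4. Replicate numbers did not pair the libraries by any label. The deviations of same-numbered libraries had a correlation of 0.299 over hotspots, and with the replicate block the differences were the same, at 4.48 and -7.89, with an exact p of 0.500, the smallest that 2 pairs allow.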
